A study of Dorcoceras hygrometricum with 51 samples.

Results

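Transcripts of 4 enzymes of sucrose and raffinose-family oligosaccharide synthesis were followed through drought acclimation and desiccation in leaves of the resurrection plant Boea hygrometrica (Dorcoceras hygrometricum). They are sucrose synthase 2 (KZV47144), sucrose-phosphate synthase 2 (KZV16331), galactinol synthase 1 (KZV17819) and a raffinose synthase, annotated as galactinol--sucrose galactosyltransferase (KZV32937), 4 of the 26693 genes in the expression table, picked by their protein identifiers. The genes were selected on values already seen in these data. Sucrose synthase 2, sucrose-phosphate synthase 2 and galactinol synthase 1 were chosen by their change in slowly dried against fresh leaves, and the raffinose synthase by its change in rapidly dried acclimated leaves, so the F, SD, A and AD libraries are described below without tests. Transcripts were measured as FPKM, the fragments of a gene scaled to its length and to the size of the library, in 39 RNA-seq libraries that form 13 groups of 3 biological replicates. Promoter methylation was measured in 12 bisulfite libraries. All plants came from mixed wild-collected seed, were raised with ample water to an age of 3 months, and each replicate pooled about 45 leaves of at least 15 plants. F is fresh leaf that was never acclimated, SD leaf of plants whose soil had dried slowly, and A leaf of acclimated plants, which were watered again after such drying. F4 and A4 are never acclimated and acclimated plants grown on for 4 weeks, and F18 and A18 those grown on for 18 weeks. FD, AD, F4D, A4D, F18D and A18D are the same 6 kinds of plant after rapid drying in air. Every group is whole leaf, and the pooled replicates average over plants of differing genotype.

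Sucrose is the main sugar that many plants carry in the phloem and one that many desiccation-tolerant tissues hold when dry. Sucrose-phosphate synthase joins UDP-glucose and fructose 6-phosphate and commits carbon to sucrose, while sucrose synthase works in both directions and in many tissues mainly splits sucrose. Galactinol synthase makes galactinol from UDP-galactose and myo-inositol, and raffinose synthase moves its galactosyl unit onto sucrose, giving raffinose. In seeds and drying leaves these oligosaccharides are known for helping membranes and proteins through the loss of water.

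The 4 genes lie on different scaffolds of the assembly, whose name no source used here states. KZV47144 (locus tag F511_16986) spans 21909 to 27601 of scaffold KQ995307.1, 5693 bases, and KZV16331 (F511_27150) spans 146948 to 154342 of KV019086.1, 7395 bases. KZV17819 (F511_01628) spans 926655 to 929048 of KV018098.1, 2394 bases. KZV32937 (F511_01448) spans 491378 to 492745 of KV006337.1, only 1368 bases, and is followed after 311 bases by KZV32938, a second gene model of 1263 bases with the same raffinose synthase annotation. Over the 39 libraries log2 values of these neighbours had a Pearson correlation of 0.997, so whether they are separate genes or pieces of a single gene cannot be told apart here, and reads could have been split between them.

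The libraries summed to 806800 to 1063492 FPKM and held 12261 to 16315 genes at 1 FPKM or more. From the smallest values of 2037 genes of low abundance, the worth of 1 fragment differed between libraries by a ratio of 1.45 at most. Only values near the lowest of each gene entered this ratio, so it could not have shown a far shallower library. A4 replicate 2 stood apart from the other A4 libraries, with a mean correlation with its group of 0.851 against 0.893 and 0.899, and had the most genes listed at 0 of the hydrated libraries (10145, where dried ones reached 10220), and calls on A4 that turn on it are given without it. Leaf markers were abundant, with rubisco small chain at 10612 to 76504 FPKM in the 18 hydrated libraries and 303 to 13415 in the 21 dried ones, and 11 antenna genes summing to 3402 to 101460 and 1340 to 11966 FPKM. The only matched phloem marker did not pass 0.250 FPKM, 3 guard cell and epidermis genes summed to 0.570 to 15.7 and 3 root genes to at most 7.22 FPKM in all libraries. The leaf markers were lower in dried leaf, and their part in these results was not tested. In pooled leaf RNA fewer cells of a type and less RNA per cell cannot be told apart.

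Sucrose synthase 2 and raffinose synthase stood higher in dried leaf and sucrose-phosphate synthase 2 stood lower. Sucrose synthase 2 was at 45.8 to 895 FPKM (median 169) in the 18 hydrated libraries and at 190 to 2674 (median 1199) in the 21 dried ones. Sucrose-phosphate synthase 2 went the other way, from 13.7 to 67.2 FPKM (median 24.4) when hydrated to 2.63 to 14.2 (median 6.29) when dried. Raffinose synthase was at 6.30 to 315 FPKM (median 16.8) in hydrated leaf, 17.7 to 36.0 after slow drying and 709 to 5612 (median 3316) in the 18 rapidly dried libraries. Galactinol synthase 1 overlapped most, at 64.0 to 240 FPKM in hydrated and 17.4 to 136 in dried leaf. Its 3 slowly dried libraries, at 17.4 to 30.9, lay with 1 exception below every other library, the exception being an AD library at 28.5.

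**Figure D1:**
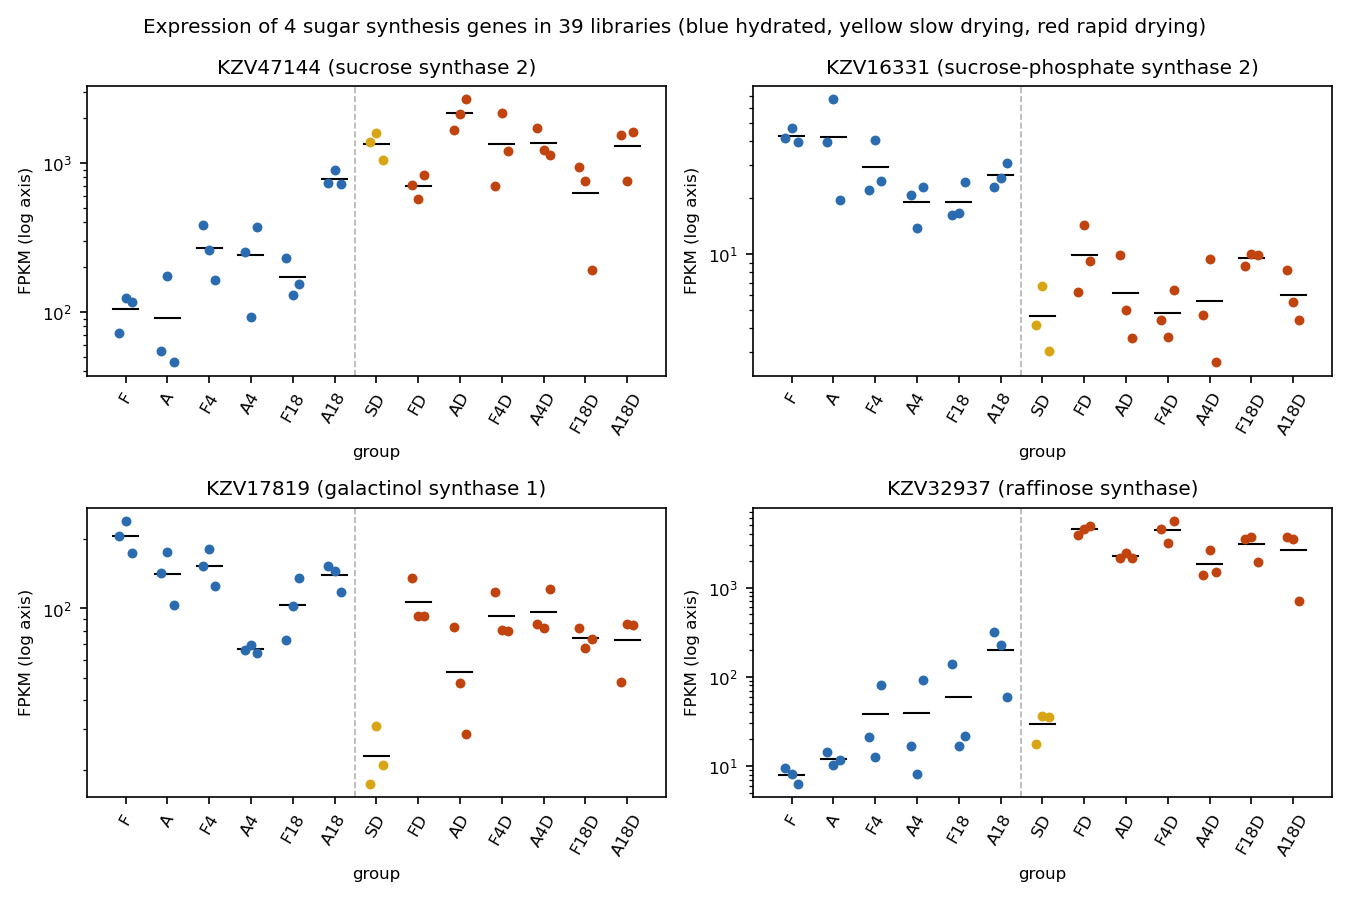
FPKM (log axis) of the 4 genes in each of 39 libraries by group, with points for libraries, bars for means of 3, blue for hydrated, yellow for slowly dried and red for rapidly dried leaf. Raffinose synthase stood at 709 FPKM or more in all 18 rapidly dried libraries and at 36.0 or less after slow drying.

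Sucrose synthase 2 was low in F, at 72.6, 124 and 116 FPKM in replicates 1 to 3, and in A, at 54.3, 173 and 45.8. Slow drying brought it to 1383, 1596 and 1049 FPKM in SD, and rapid drying to 708, 573 and 833 in FD. The highest of all groups was AD, at 1666, 2119.8 and 2674 FPKM. All 3 AD libraries lay above all 3 FD libraries, by a fitted 3.03-fold, and the SD, FD and AD libraries lay above those of F or A. From F to SD the fitted rise was 12.9-fold, from F to FD 6.8-fold and from A to AD 27.6-fold, and from SD to A it was 17.3-fold lower again.

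In the plants grown on, sucrose synthase 2 was at 382, 262 and 165 FPKM in F4 and at 253, 92.6 and 373 in A4. After rapid drying it was at 699.8, 2144 and 1199 in F4D and at 1716, 1229 and 1133 in A4D. The dried libraries lay above the hydrated ones at 4 weeks in both kinds of plant. At 18 weeks it was at 229, 129.6 and 154 FPKM in F18 and at 733, 895 and 723 in A18, so the hydrated A18 libraries overlapped the dried FD libraries in level. Dried, it was at 944, 756 and 190.5 in F18D and at 1548, 755 and 1619.7 in A18D, and both of these groups overlapped their hydrated counterparts. In the order of the 13 means, from AD (2153 ± 505, SD, n = 3) down to A (91.1 ± 71.3), only F18 and F, ranked 11 and 12, did not overlap as neighbours.

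Sucrose-phosphate synthase 2 was highest in F, at 41.5, 46.9 and 39.6 FPKM, and in A, at 39.5, 67.2 and 19.5. It was at 4.19, 6.70 and 3.02 FPKM in SD, 6.29, 14.2 and 9.19 in FD and 9.90, 5.04 and 3.57 in AD. All libraries of these dried groups lay below those of F and A, with fitted changes of 8.01-fold (SD against F), 4.18-fold (FD against F) and 5.73-fold (AD against A). Hydrated leaves grown on were at 21.9, 40.5 and 24.6 FPKM in F4, 20.6, 13.7 and 22.8 in A4, 16.2, 16.6 and 24.2 in F18 and 22.8, 25.5 and 30.6 in A18. Rapid drying brought these to 4.44, 3.61 and 6.38 in F4D, 4.73, 9.41 and 2.63 in A4D, 8.59, 10.0 and 9.85 in F18D and 8.24, 5.51 and 4.43 in A18D. Each dried group lay wholly below its hydrated counterpart, while every pair of neighbours in the order of means overlapped, from F (42.7 ± 3.76, SD, n = 3) to SD (4.64 ± 1.88).

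Galactinol synthase 1 was at 207, 239.8 and 173 FPKM in F and at 143, 175 and 104 in A. In SD it was at 17.4, 30.9 and 21.0, the lowest group, a fitted 8.77-fold below F and 4.53-fold below FD. In FD it was at 136, 92.3 and 92.8 and in AD at 83.0, 47.6 and 28.5. The fitted drop on rapid drying was 1.94-fold from F to FD and 2.8-fold from A to AD. Galactinol synthase 1 was chosen by its change from F to SD, so the size of that drop is not set against these. In the plants grown on it was at 153, 180.3 and 125 FPKM in F4 and 117, 80.3 and 80.0 in F4D, and at 66.2, 69.8 and 64.0 in A4 and 85.7, 82.4 and 122 in A4D. F4D lay wholly below F4, while A4D lay wholly above A4, whose libraries were the lowest of any hydrated group. At 18 weeks it was at 73.3, 103 and 136 FPKM in F18, 153, 146 and 118 in A18, 82.6, 67.6 and 73.7 in F18D and 48.3, 85.5 and 84.7 in A18D. A18D lay below A18, F18D overlapped F18, and all neighbours in the order of means overlapped, from F (206 ± 33.4, SD, n = 3) to SD (23.1 ± 6.97).

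Raffinose synthase had the widest range, its highest library standing 891 times above its lowest. It was at 9.45, 8.10 and 6.30 FPKM in F, 14.4, 10.4 and 11.6 in A and 17.7, 36.0 and 35.9 in SD. Rapid drying brought it to 3913, 4581 and 4943 FPKM in FD and to 2136, 2439 and 2144 in AD. Fitted changes were 3.32-fold up from F to SD, 504-fold up from F to FD and 172-fold up from A to AD, so the slowly dried leaves, although dried, stood 152-fold below FD and 76-fold below AD. AD lay wholly below FD, by 1.99-fold. KZV32938, the neighbouring gene model, was at mean levels of 3.09 FPKM in F, 17.2 in SD, 3341 in FD and 1015 in AD.

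Hydrated leaves grown on held more raffinose synthase than F, and unevenly, at 21.0, 12.6 and 81.7 FPKM in F4, 16.8, 8.24 and 93.2 in A4, 139.6, 16.9 and 21.4 in F18 and 315, 226 and 58.9 in A18. Replicate 3 of F4 and A4 and replicate 1 of F18 stood far above the others of their group. After rapid drying it was at 4549, 3142 and 5612 FPKM in F4D, 1379.7, 2624 and 1479 in A4D, 3491, 3671 and 1956 in F18D and 3687, 3511 and 709 in A18D. Every rapidly dried library stood above every hydrated one. In the order of means the 6 rapidly dried groups came first, from FD (4479 ± 523, SD, n = 3) to A4D (1827 ± 691), all overlapping their neighbours, then A18 (200 ± 130), F18, A4, F4, SD, A (12.1 ± 2.07) and F (7.95 ± 1.58), of which only SD and A, and A and F, did not overlap.

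The tested comparisons contrast libraries that the choice of genes did not use, those of the plants grown on and dried rapidly. limma was run on log2(FPKM + 1) of 18736 kept genes over all 39 libraries. Its estimate of the spread thus also draws on the F, SD, A and AD libraries used in the choice. A call needed a two-sided Benjamini-Hochberg adjusted p no higher than 0.05 and a change of 1 or more, up or down, on the log2 scale. All 4 genes passed the filter on low values. Rapid drying lowered most genes as deposited, with a median log2 fold change of −0.67 (F4D/F4) and −0.61 (A4D/A4) at 4 weeks and of −0.63 (F18D/F18) and −0.41 (A18D/A18) at 18 weeks. Scaling the libraries by their median ratio cut these medians to −0.12, −0.11, −0.05 and −0.02 and moved the share of calls that were higher from 22.4 to 47.6%, 22.6 to 44.8%, 16.9 to 53.0% and 23.8 to 54.3%.

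At 4 weeks rapid drying raised sucrose synthase 2 and raffinose synthase and lowered sucrose-phosphate synthase 2 in plants with and without acclimation. In F4D/F4, 10.4% of all genes were called higher and 35.9% lower, and in A4D/A4 10.4% and 35.5%. Raffinose synthase rose by 7.21 on the log2 scale (standard error 0.73, adjusted p = 1.8e-09, limma) in F4D/F4 and by 6.13 (adjusted p = 3.9e-08) in A4D/A4. Sucrose synthase 2 rose by 2.25 (standard error 0.52, adjusted p = 5.3e-04) and 2.69 (adjusted p = 6.9e-05), 4.76-fold in F4D/F4. Sucrose-phosphate synthase 2 fell, at −2.35 (standard error 0.39, adjusted p = 7.0e-06) and −1.71 (adjusted p = 4.4e-04), or −1.54 and −1.02 after median-ratio scaling. Galactinol synthase 1 was not called in either. Its log2 fold change was −0.73 in F4D/F4 (adjusted p = 0.041), near the median of all genes and 0.18 after scaling, and 0.51 in A4D/A4 (adjusted p = 0.156), where scaling gave 1.30 (adjusted p = 0.003) and a call.

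At 18 weeks raffinose synthase rose in both kinds of plant, by 6.25 in F18D/F18 (standard error 0.73, adjusted p = 1.3e-07, limma) and by 3.69 in A18D/A18 (adjusted p = 2.5e-04). In the fit of the A18 and A18D libraries alone the latter value was the same but was no longer called (adjusted p = 0.050). Of all genes 6.13% were called higher and 30.2% lower in F18D/F18, and 6.43% and 20.6% in A18D/A18. Sucrose synthase 2 rose by 1.63 in F18D/F18 (adjusted p = 0.012), a call that was lost without F18 replicate 2 (1.45, adjusted p = 0.053), F18D replicate 1 (1.19, adjusted p = 0.098) or F18D replicate 2 (1.35, adjusted p = 0.068). In A18D/A18 it was not called, at 0.66 (95% interval −0.40 to 1.73, adjusted p = 0.349), with A18 already high. Sucrose-phosphate synthase 2 fell by 1.98 in A18D/A18 (adjusted p = 2.1e-04) and was at −0.91 in F18D/F18 (adjusted p = 0.053), −0.16 after scaling. Galactinol synthase 1 was called in neither, at −0.43 in F18D/F18 (0.36 after scaling) and −0.96 in A18D/A18 (adjusted p = 0.013, just under the size a call needs). The latter was −0.38 after scaling and was called without A18 replicate 3 (−1.08), A18D replicate 2 (−1.10) or A18D replicate 3 (−1.09).

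**Figure D2:**
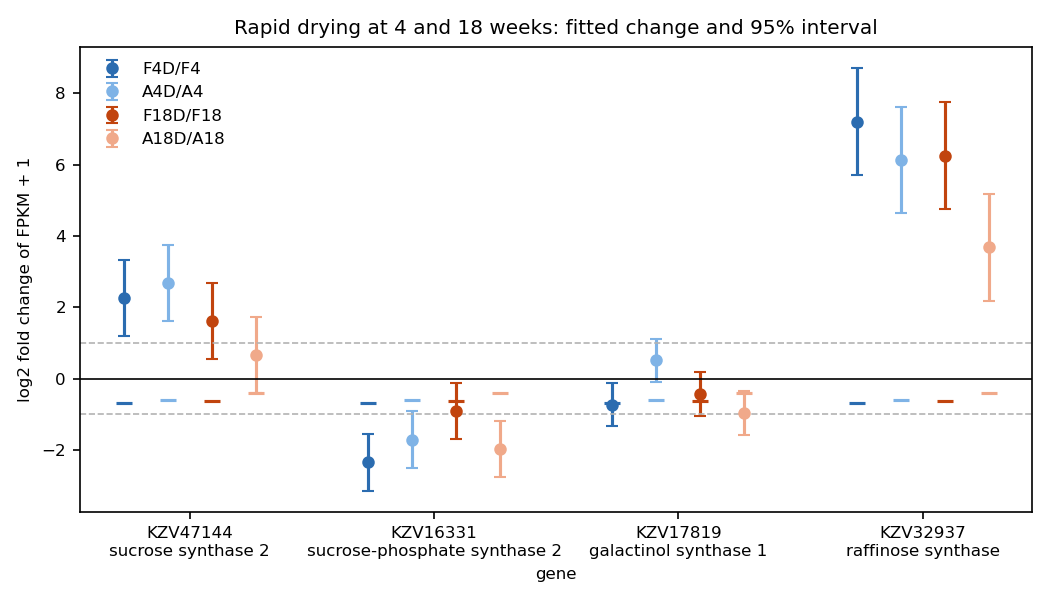
Fitted log2 fold change of FPKM + 1 of the 4 genes in 4 rapid dryings, with 95% intervals, short bars for the median of all 18736 genes and dashed lines at a change of 1. Raffinose synthase was raised in all 4, from 3.69 to 7.21.

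Acclimated and never acclimated plants did not differ in these responses by more than the test could call. The interaction (A4D/A4)/(F4D/F4) called 0 of the 4 genes and 0.0107% of all genes, and (A18D/A18)/(F18D/F18) called 0 of the 4 and 0.801% of all. At 4 weeks the interval of the difference was −3.20 to 1.04 for raffinose synthase, −1.06 to 1.94 for sucrose synthase 2 and −0.48 to 1.76 for sucrose-phosphate synthase 2. For raffinose synthase and sucrose synthase 2 these hold differences of more than 1 in either direction, and for sucrose-phosphate synthase 2 in 1 direction only. For galactinol synthase 1 the difference was 1.23 (interval 0.37 to 2.09) with an adjusted p of 0.692. At 18 weeks the difference for raffinose synthase was −2.57, lower in acclimated plants (interval −4.69 to −0.45, adjusted p = 0.256).

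Between hydrated leaves, acclimated plants of 18 weeks held more sucrose synthase 2 than never acclimated ones. In A18/F18 it was higher by 2.22 on the log2 scale (4.67-fold, standard error 0.52, adjusted p = 0.007, limma), in 3 of 3 libraries, where 7.75% of all genes were called. Without F18 replicate 2 the value was 2.05 with an adjusted p of 0.057. Raffinose synthase was at 2.08 (interval 0.59 to 3.58, adjusted p = 0.070) and was called at 2.42 after scaling (adjusted p = 0.045), at 2.80 without A18 replicate 3 and at 3.02 without F18 replicate 1. At 4 weeks 0.0480% of all genes and none of the 4 were called in A4/F4. There galactinol synthase 1 was at −1.17 (interval −1.78 to −0.56, adjusted p = 0.129), all A4 libraries below all F4 ones, and it was called without A4 replicate 2 (−1.20, adjusted p = 0.044). The share of all genes separating like this was not counted.

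Growth from 4 to 18 weeks moved the hydrated levels of 3 genes in acclimated plants and of none in the others, though this difference between the plants was not tested. In A18/A4, 12.5% of all genes were called, and raffinose synthase was higher by 2.71 (standard error 0.73, adjusted p = 0.014), sucrose synthase 2 by 1.91 (adjusted p = 0.014) and galactinol synthase 1 by 1.04 (adjusted p = 0.019). These 3 calls rest on few libraries. Without A4 replicate 2 sucrose synthase 2 was at 1.34 (adjusted p = 0.092) and raffinose synthase at 1.99 (adjusted p = 0.081), without A4 replicate 1 raffinose synthase and galactinol synthase 1 were lost, at 2.46 and 1.04 (adjusted p = 0.066 and 0.059), and without A18 replicate 1 both were lost again, at 2.23 and 0.97 (adjusted p = 0.088 and 0.075). Without A18 replicate 2 all 3 were lost, at 2.46, 1.82 and 1.00 in the order above (adjusted p = 0.073, 0.064 and 0.074), and the fit of these libraries alone called none of the 4. After median-ratio scaling galactinol synthase 1 was at 0.83 and was not called (adjusted p = 0.113). In F18/F4, where 16.9% of all genes were called, none of the 4 was, with fitted changes from −0.61 to 0.40.

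Between dried leaves of different plants and ages none of the 4 genes was called in A4D/F4D (0.0320% of all genes called), A18D/F18D (0.662%), F4D/FD (13.5%), F18D/F4D (10.1%) or A18D/A4D (0.262%). Raffinose synthase was at −1.30 in A4D/F4D and was not called (interval −2.80 to 0.20). All 3 A4D libraries lay below all 3 F4D ones, but the share of all genes that separate in this way was not counted. Sucrose synthase 2 was at 1.26 in A18D/F18D (interval 0.20 to 2.33, adjusted p = 0.238) and at −1.24 in F18D/F4D (interval −2.30 to −0.18, adjusted p = 0.116). The latter was called without F18D replicate 1 (−1.68, adjusted p = 0.045) and after scaling (−1.76, adjusted p = 0.033).

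Each of the 4 genes was set against its enzyme family, since FPKM is per length and can be summed. Sucrose synthase 2 was the main sucrose synthase transcript in most leaves. It made up 88.3 to 99.8% of the FPKM of the 4 sucrose synthase genes in dried libraries and 27.8 to 97.3% in hydrated ones. In A it held only 38.4 ± 10.1% (SD, n = 3), when KZV18264, a second gene annotated as sucrose synthase 2, stood at 129 FPKM. Sucrose-phosphate synthase 2 was 43.6 ± 4.66% of its 3-gene family in F and 4.30 ± 1.39% in SD. The summed FPKM of that family was 98.1 ± 4.24 in F and 106 ± 8.72 in SD, because KZV30085, another sucrose-phosphate synthase, was at 23.4 FPKM in F and 89.2 in SD. In FD against F the family sum was lower with no overlap, at 69.0 ± 11.8 FPKM. In A18D it was also lower with no overlap, at 80.8 ± 32.2 against 202 ± 74.3 in A18. The other rapid dryings overlapped their hydrated counterparts. Mean sums there were 112 FPKM in AD and 91.2 in A, and 69.0 in F4D and 83.0 in F4. They were 69.8 in A4D and 68.5 in A4, and 71.6 in F18D and 91.7 in F18.

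Galactinol synthase 1 was a small part of its family throughout, 0.227 to 1.92% of the FPKM in the 39 libraries. Nearly all of the rest was KZV14491, a gene annotated as galactinol synthase 1-like and named here after its values were seen, with group means from 4041 FPKM in AD to 14844 in A18. KZV14491 was not called in any of the 4 tested rapid dryings, at log2 fold changes from −0.73 to 0.09. Raffinose synthase KZV32937 went from 0.510 ± 0.152% of the 11 raffinose and stachyose synthase genes in F and 1.08 ± 0.414% in SD to 41.8 ± 1.01% in FD and 35.4 ± 1.11% in AD. In the other rapidly dried groups its mean share was 31.9 to 48.7%, and the family sum was 10716 ± 1121 FPKM in FD against 1609 ± 289 in F and 2797 ± 129 in SD. The neighbour KZV32938, at a mean of 3341 FPKM in FD, counts here as a separate gene. If both models are pieces of 1 gene, these shares, the sums and the count of 11 would differ.

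**Figure D3:**
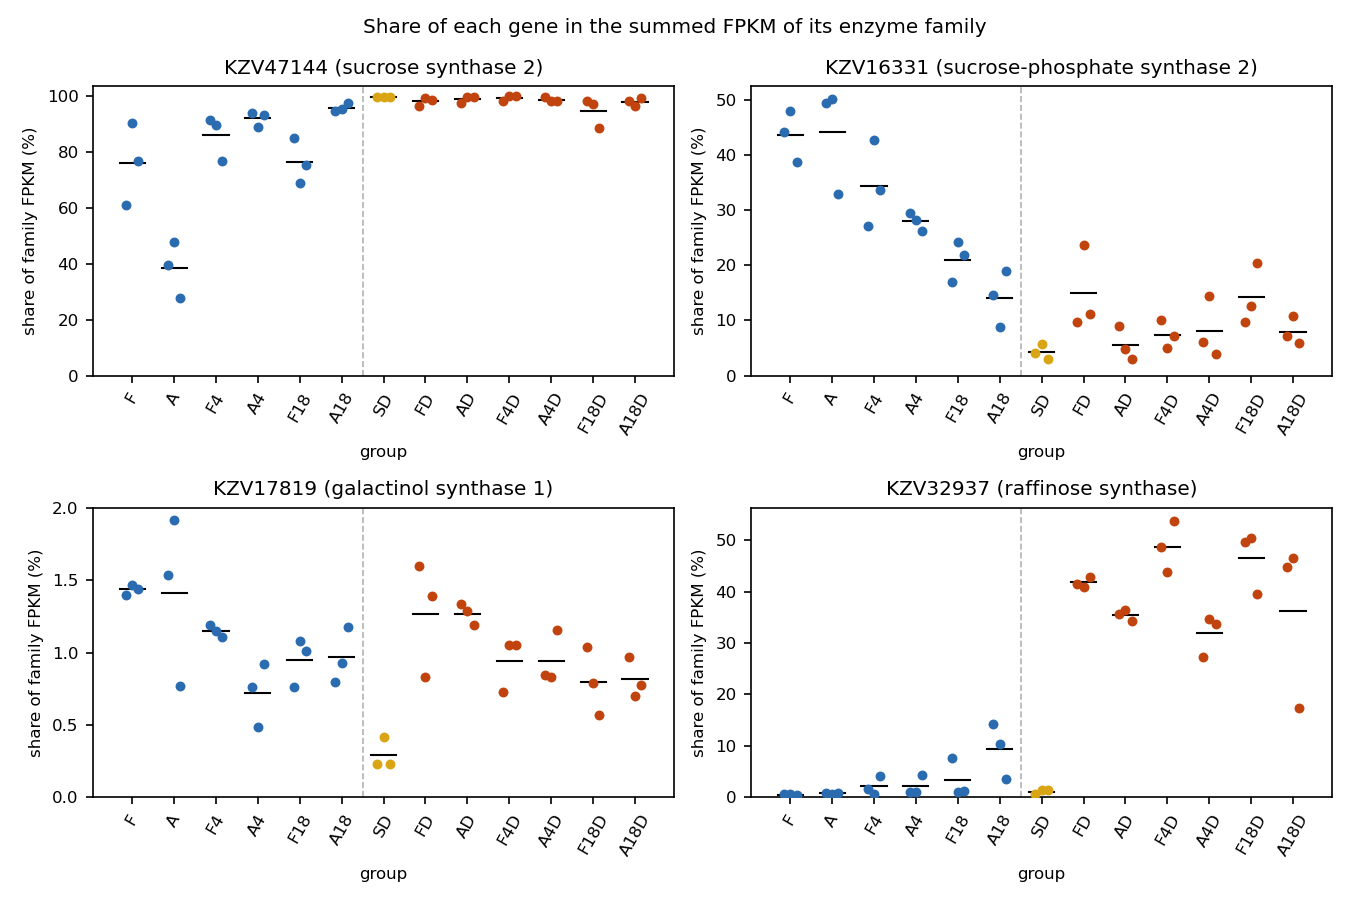
Share (%) of each gene in the summed FPKM of its enzyme family, per library, by group, with bars for means of 3. Galactinol synthase 1 stayed at 1.92% or less, while raffinose synthase took 17.3 to 53.7% in rapidly dried leaf. Its neighbour KZV32938 counts as a separate gene of the family.

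The wider pathway held genes called in both directions on rapid drying, as all genes did. The list of 11 roles, chosen like the genes with earlier results known, held 234 kept genes, of which 31 were called higher and 48 lower on drying of F4, 33 and 36 on drying of A4, 24 and 44 for F18 and 27 and 25 for A18. Their median log2 fold changes were −0.38, −0.09, −0.31 and −0.02. The shares called in F4D/F4 were 13.2% higher and 20.5% lower, beside 10.4 and 35.9% of all genes, and in A4D/A4 14.1 and 15.4%, beside 10.4 and 35.5%. At 18 weeks they were 10.3 and 18.8% in F18D/F18, beside 6.13 and 30.2%, and 11.5 and 10.7% in A18D/A18, beside 6.43 and 20.6%. Of these genes 169 stood under UDP-sugar enzymes, 149 of them through 1 KEGG Orthology number that mostly shares its cell with others and only 4 by their product. Without it, a choice made after seeing the data, 65 genes were left, with 18 higher and 16 lower, 18 and 16, 16 and 9, and 15 and 13 in the same order, at medians of 0.04, 0.08, −0.01 and −0.09. These still held genes that are not sugar enzymes by their annotation, as given below. KZV36404, KZV36405 and KZV53322 count among the higher in F4D/F4, A4D/A4 and F18D/F18. The inhibitor KZV26824 counts among the lower throughout, and the inhibitor KZV44608 in A4D/A4.

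The supply of myo-inositol for galactinol is made by myo-inositol-phosphate synthase, and its only gene in the list, KZV56787, fell. It was at 1242 FPKM in F4 and 72.8 in F4D (log2 fold change −4.13, adjusted p = 3.6e-08, limma), 1179 in A4 and 102 in A4D (−3.50) and 642 in A18 and 76.6 in A18D (−2.74). In F18 it was low before drying, at 160 FPKM, and was not called in F18D/F18 (−0.53, adjusted p = 0.397). Among raffinose and stachyose synthases 3 of 11 rose and 4 fell in F4D/F4, 27.3 and 36.4% beside 10.4 and 35.9% of all genes. KZV32937 and KZV32938 were counted separately. KZV32938 rose with its neighbour, by 6.97 in F4D/F4 and 3.81 in A18D/A18, while KZV27585 fell in all 4 dryings, at −2.92, −2.35, −2.25 and −1.55, and KZV41917 was called in A18D/A18 alone, at 2.26. The sucrose-phosphate synthase KZV27438 also fell in all 4, at −2.41 to −1.56, whereas KZV30085 was at 0.77 and 0.93 at 4 weeks and fell by 1.17 in A18D/A18. The second sucrose synthase 2, KZV18264, fell by 2.82 in F4D/F4 and was not called elsewhere.

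Invertases, which split sucrose, and sugar carriers were called in both directions. Of 10 genes of the invertase role 1 rose and 2 fell in F4D/F4, and of 10 sucrose and SWEET transporters 4 rose and 3 fell, beside 10.4% higher and 35.9% lower of all genes. The cell-wall invertase KZV21430, which splits sucrose outside the cell, rose in all 4 dryings, by 5.23 in F4D/F4 (from 4.31 to 182 FPKM), 4.55, 1.72 and 2.03. KZV26824, of the invertase and pectin methylesterase inhibitors, fell in all 4, at −5.62, −6.16, −3.25 and −4.80. The acid beta-fructofuranosidase KZV40990, named here after its values were seen, fell in 3, at −1.65 in F4D/F4, −1.47 in A4D/A4 and −1.16 in A18D/A18. A second inhibitor gene, KZV44608, was called in A4D/A4 alone, at −4.35. Sucrose transporter 4 (KZV46386), a carrier of the vacuolar membrane in other plants, rose by 3.88 in F4D/F4, from 124 to 1703 FPKM, by 4.18 in A4D/A4 and, at 18 weeks, by 1.65 (F18D/F18) and 1.12 (A18D/A18). Of the SWEET family of sugar pores, KZV33833 rose in all 4 (4.38, 3.21, 1.99 and 1.93), and KZV44475 fell in 3 (−4.36, −3.65 and −1.92) and was at −0.60 in F18D/F18.

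In trehalose synthesis 6 of 15 genes rose and 2 fell in F4D/F4, beside 10.4% higher and 35.9% lower of all genes. KZV29585 rose by 5.69, 5.81, 3.26 and 4.25 in the 4 dryings in the same order and KZV55355 by 4.26, 3.99, 2.30 and 3.16, while KZV37279 fell in all 4, at −4.32, −3.56, −2.17 and −2.35. The alpha-galactosidase role was led by KZV36405 (maturation polypeptide), KZV36404 (18 kDa seed maturation protein) and KZV53322, whose database match is a late embryogenesis abundant protein, so these are not enzymes of sugar breakdown by their products. They rose by 4.96, 3.48 and 5.58 in F4D/F4. Of the UDP-sugar role the rule named KZV39824, matched to a retrotransposon polyprotein (5.37 in F4D/F4), G000844 (4.46) and KZV52607 (−6.23).

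**Figure D4:**
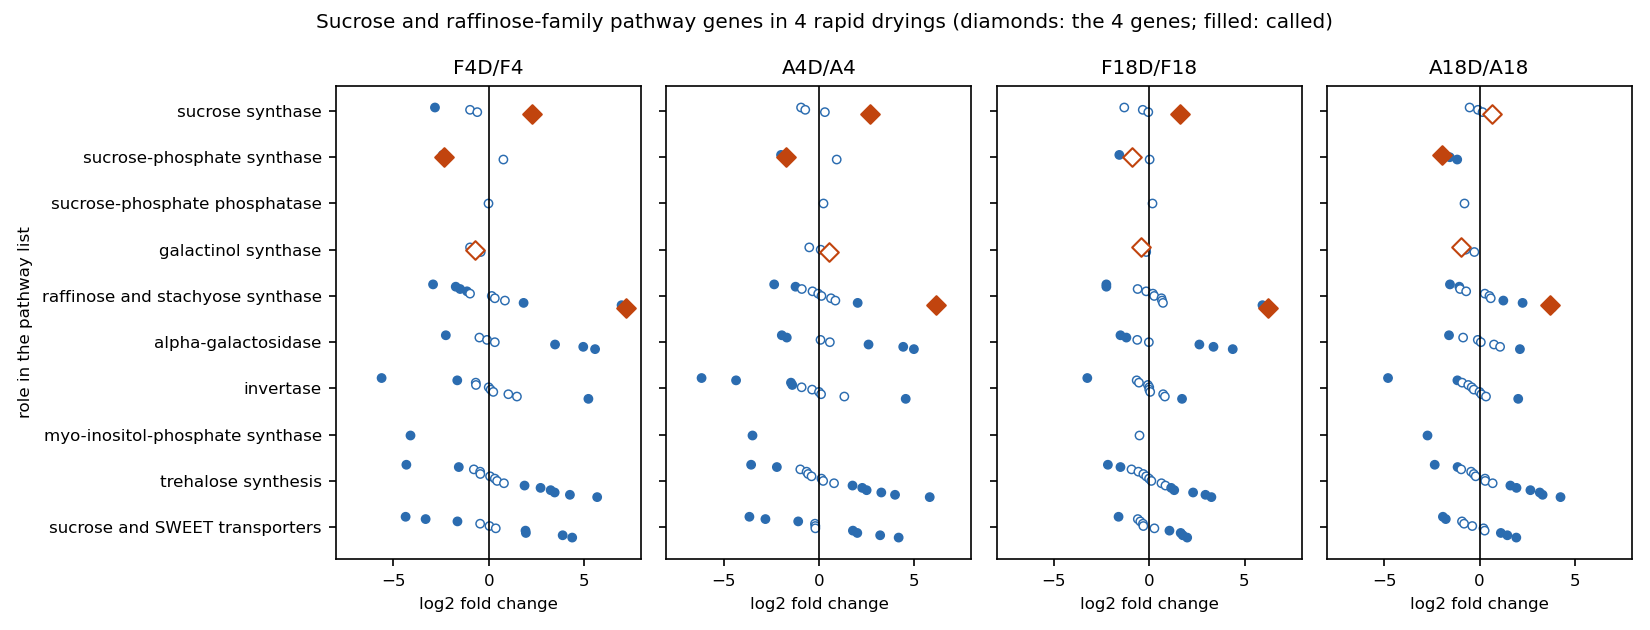
Log2 fold change of the 65 pathway genes outside the UDP-sugar role in 4 rapid dryings, by role, with diamonds for the 4 genes, circles for others and filled symbols for calls. Raffinose synthase lies at or near the right edge of its role in each panel, at 3.69 to 7.21.

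The genes whose log2 levels followed each of the 4 most closely over the 39 libraries were found among 4570 named genes with a mean of at least 10 FPKM. These correlations are descriptions, since all points share the contrast of hydrated and dried leaf. For raffinose synthase the closest were KZV32938 (r = 0.997), protein phosphatase 2C 51 (KZV39787, 0.978), a beta-1,3-galactosyltransferase (KZV34717, 0.973), KZV34347, annotated as a Mediator subunit (0.971), and protein phosphatase 2C 6-like (KZV19000, 0.969). Type 2C phosphatases of this kind include negative regulators of abscisic acid signalling. KZV39787 was at 0.497 FPKM in F, 13.8 in SD and 877 in FD, low in slowly and high in rapidly dried leaf like the raffinose synthase. For sucrose synthase 2 they were an ABC transporter (KZV32355, 0.957), a plastid transketolase (KZV31324, 0.951), a glutathione peroxidase (KZV31547, 0.941), an AWPM-19-like membrane protein (KZV20706, 0.941) and the late embryogenesis abundant protein D-29 (KZV49560, 0.939), all high in SD as well as in AD.

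Sucrose-phosphate synthase 2 was followed most closely by a 5'-nucleotidase domain protein (KZV38261, 0.935), pyruvate orthophosphate dikinase (KZV56175, 0.932), phosphoribulokinase of the Calvin cycle (KZV51493, 0.931), a receptor-like kinase (KZV47393, 0.930) and a phytochromobilin oxidoreductase of the plastid (KZV20857, 0.930). Phosphoribulokinase was at 1227 FPKM in F and 21.4 in SD. Galactinol synthase 1 was followed by another raffinose synthase, KZV45681 (0.902), at 402 FPKM in F and 12.7 in SD, and at lower correlations by a RADIALIS-like protein (KZV52637, 0.806), L-aspartate oxidase (KZV16889, 0.80), a hemoglobin (KZV28009, 0.781) and NADP-dependent malic enzyme (KZV58831, 0.768). Among the 4 genes themselves the correlation was highest between sucrose synthase 2 and raffinose synthase (0.71) and lowest between sucrose synthase 2 and sucrose-phosphate synthase 2 (−0.76).

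Promoter methylation was measured in 1 bisulfite library per group, pooled from 6 replicates, for all groups but FD, and its depth per promoter is unknown. Which gene a value belongs to was judged from neighbouring genes, as described below, and is not certain. The promoters of raffinose synthase and galactinol synthase 1 were nearly free of methylation in all 12 groups, at no more than 4.60 and 2.38% in CG, 2.2 and 1.75% in CHG and 2.67 and 2.00% in CHH context (H is any base but G). The promoter of sucrose synthase 2 held CG methylation in some groups, at 30.2% in F, 27.9% in SD, 23.9% in F4, 17.5% in A18, 17.2% in F18D and 48.3% in A18D. It was at 3.80% in A4 and at 0 in A, AD, F4D and A4D, and F18 is not analysed here, while CHG and CHH stayed at or below 5.00 and 3.6%. Differences of at least 20 points in size were found 5 times among 99 combinations of gene, comparison and context, all in CG of sucrose synthase 2, at −27.9 points in A/SD, −30.2 in A/F, −23.9 in F4D/F4, −20.1 in A4/F4 and 30.8 in A18D/A18. Where CG was at 0, the mean transcript was at 91.1 FPKM in A, 2153 in AD, 1348 in F4D and 1359 in A4D. It was at 239 FPKM in A4, 630 in F18D and 784 in A18. In the groups of higher CG it was at 104 FPKM in F, 270 in F4, 1343 in SD and 1307 in A18D. A link between methylation and transcript was not tested. Methylation of sucrose-phosphate synthase 2 is not analysed here.

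**Figure D5:**
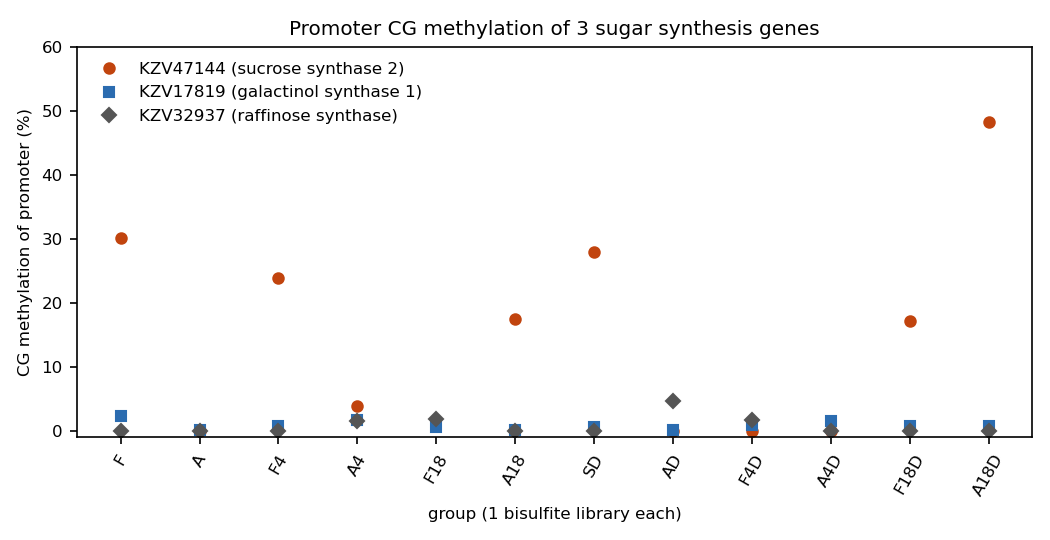
Promoter CG methylation (%) of 3 of the genes, 1 bisulfite library per group. Sucrose synthase 2 ranged from 0 to 48.3%, while the other genes stayed at 4.60% or less.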

How the data were processed

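The deposited expression table holds FPKM per gene, which the authors made by aligning reads with HISAT, assembling with StringTie 1.0.4, then using Bowtie2 2.2.5 and RSEM for abundance (versions of HISAT, RSEM and BSMAP are not given in the sources used here), with no scaling between libraries stated. The deposited methylation fraction is methylated over all reads at the cytosines of a promoter, per context, after mapping with BSMAP, without read numbers. Groups came from the sample labels. A gene was kept if 3 libraries or more held it at 1 FPKM or above (18736 of 26693). With a pseudocount of 1, means of the 13 groups were estimated on the log2 scale by limma 3.58.1 in R 4.3.3 (eBayes with trend, no covariates), and p-values were adjusted over all kept genes of a comparison. Fold changes are on this scale and understate the change of low genes. There were 15 tested and 13 described comparisons. Tables were handled in Python 3.11.15 with pandas 2.3.3.

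The 4 genes and the lists were chosen with earlier results of these data known. Genes are named by rule: the 4, up to 3 called genes of each pathway role with the largest change in F4D/F4, A4D/A4, F18D/F18 or A18D/A18, and the 5 genes most correlated with each of the 4. On simulated data of 18736 genes the fit of F4D/F4 called 66.0, 78.0, 96.0 and 100.0% of genes changed by 1.5, 2, 3 and 4 log2 units, with 9 false calls. The changed genes were few and none was of low level, and no shift of all genes was simulated. These rates therefore do not carry over to low genes or to the shift seen on drying. The FPKM column beside the fractions followed the locus tag before its own (r = 0.93 to 0.94, against 0.07 to 0.09 for its own tag) and was used for this check alone. The fractions were taken by their own tag. Over neighbouring genes the difference in CHG methylation followed the distance between them best with that reading in 12 of 12 groups. Spearman rho was 0.158 to 0.184, against 0.098 to 0.125 when shifted by 1 gene. The groups share the same promoters, so they are not 12 separate checks. Each reading also used other gene pairs (in F 9621, against 10928 and 8221 when shifted), so the assignment is not certain. Alternatives were median-ratio scaling, another pseudocount, all genes without a filter, the libraries of a comparison alone, a replicate block, single libraries left out, neighbouring methylation rows and, chosen after seeing the data, the pathway list without its UDP-sugar role. The labels do not say that a replicate number marks shared plants, and no comparison had all its same-numbered pairs deviating together (0 of 13 with every correlation over 0.1). No read counts were used, so no count model was fitted, and no sequence is printed because no reference was used here.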

Additional observations from a re-analysis of the deposited data

Results flagged for a closer look

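As deposited, the 3 F4D libraries of galactinol synthase 1 (KZV17819) lay below the 3 F4 ones and the 3 A4D libraries above the 3 A4 ones. How many of all genes separate in this way was not counted. The log2 difference between the responses of A4 and F4 was 1.23, which did not pass (adjusted p = 0.692, limma). It ran from 1.06 to 1.41 when single libraries were left out and was 1.12 after median-ratio scaling. The F4D/F4 change itself was −0.73 as deposited, near the median of all genes (−0.67). After scaling it was 0.18, so it was no longer a fall.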

How the results depend on the processing

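The 3 calls of F4D/F4 and the 3 of A4D/A4 held in number whenever a single library was left out. Scaling by the median ratio gave 2 called genes in A18/F18 (1 as deposited) and 1 in F18D/F4D (0 as deposited), and took the galactinol synthase 1 call from A18/A4. The fit of a comparison's libraries alone gave 1 call in F18D/F18 (sucrose synthase 2 lost) and 1 in A18D/A18 (raffinose synthase lost), against 2 in each with all libraries, 0 in A18/A4 (3 with all libraries) and 26 pathway genes in A18D/A18 (52 with all libraries). Leaving out single libraries gave 0 to 3 calls in A18/A4, 0 to 1 in A4/F4, 0 to 2 in A18/F18, 1 to 2 in F18D/F18, 2 to 3 in A18D/A18 and 0 to 1 in F18D/F4D. Without the UDP-sugar role, a choice made after seeing the data, the pathway list fell from 234 to 65 genes. It then held 34 and 34 calls at 4 weeks (F4D/F4, A4D/A4) and 25 and 28 at 18 weeks (79, 69, 68 and 52 with that role). Reading methylation from the row of the following or the preceding gene gave 1 or 2 changes of 20 points (5 from its own row). Apart from the fits of fewer libraries and the shorter list, the cause was not tested. The share of all genes called under these alternatives is not given here. The changes in count therefore cannot be read as particular to these genes.

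Whether replicate numbers pair the samples is not known from the labels. With a replicate block the 4 rapid dryings still held 3, 3, 2 and 2 called genes and the pathway list 78, 68, 68 and 52. The share of all genes called with the block is not given here. Over all alternatives 679 values of the 4 genes stayed on their side of the threshold, 19 lost a call and 10 gained one. The sign differed in 31 values, 7 under scaling and 24 with a library left out, of which 0 were calls. With 3 libraries a group and no read counts, depth per gene is unknown, and the bisulfite values have no replicate.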
